A study of Mus musculus with 6 samples.

Results

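The phagocyte NADPH oxidase is described here through 5 of its genes, *Cybb*, *Cyba*, *Ncf1*, *Ncf4* and *Rac2*, which were taken by symbol from the 25711 gene entries of a mouse RNA sequencing table. All 5 were present once, and all 5 were expressed enough to be tested. The RNA was from macrophages that had been derived in culture from the bone marrow of wild-type mice. Of the 6 libraries 3 were controls at 24 h and 3 followed 24 h with CCL7, a chemokine, at 500 ng/ml, and both groups share the genotype and the time. The series asks how CCL7 relates to macrophage polarization and to rheumatoid arthritis. The labels do not say what the control cells received, or whether replicates were separate cultures or animals. The p-values therefore reflect only how far these samples spread, which may be technical.

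The enzyme makes superoxide by moving electrons from cytosolic NADPH across a membrane to oxygen, and it is known for its part in killing microbes and in redox signalling. Its catalytic core is a membrane flavocytochrome of gp91phox (also called NOX2, from *Cybb*) and p22phox (from *Cyba*). In a resting phagocyte the core is inactive. On activation, cytosolic proteins that include p47phox (*Ncf1*) and p40phox (*Ncf4*) move to the membrane with a Rac GTPase (*Rac2* or *Rac1*) and switch it on. *Rac1* is not among the 5 chosen genes and is given with the assembly partners.

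Library totals ran from 34860523 to 51161400 counts. In a principal component analysis of log2 CPM (counts relative to their library's total, scaled between libraries by the TMM method) 93.3% of the variance lay along a component that separated the groups. On the next, with 2.39%, CCL7 replicate 2 scored 18.6 and CCL7 replicates 1 and 3 scored -6.20 and -13.1, so values of the subunit genes without that library are given where it is extreme. All 9 macrophage markers examined had a mean of at least 1 FPKM (counts relative to the gene's length and the library's total), and their summed level was 10871 to 11414 FPKM in controls and 20834 to 22227 with CCL7. Most of that sum was *Lyz2* (mean 8793 and 17453 FPKM), while *Cd68* (936 and 675) and *Mertk* (24.7 and 20.9) had lower FPKM with CCL7. FPKM follow the deposited library totals, under which the median log2 change of all tested genes was -0.26. The small difference in *Mertk* therefore depends on the scaling. Neutrophils are also rich in this oxidase. Of 11 neutrophil markers 8 were analysed here, and only *Csf3r*, which macrophages also express, reached a mean of 1 FPKM (10.5 in controls and 15.0 with CCL7). The defining neutrophil genes were near 0, with 0 and 2 counts of *Ly6g* and 2 and 0 counts of *Elane* over the 3 control and the 3 CCL7 libraries. *Camp*, a granule gene, had a mean of 0.11 FPKM in controls and 1.51 with CCL7. The summed neutrophil list was 10.1 to 11.3 FPKM in controls and 15.4 to 17.7 with CCL7, most of it *Csf3r*, and its part in the results below was not tested.

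All 5 subunit genes were higher with CCL7, and *Cybb* stood out in size. *Cybb* rose 7.04-fold, *Rac2* 2.42-fold, *Cyba* 1.98-fold, *Ncf1* 1.87-fold and *Ncf4* 1.86-fold. Together the 5 genes took 0.239 ± 0.00349% of all counts in controls and 0.812 ± 0.0146% with CCL7 (mean ± SD, n = 3 per group here and below). The 5 calls stand against a background in which 69.1% of the 11143 tested genes were called, 33.9% higher and 35.2% lower, so a rise as such was common in these libraries. A called rise of at least 1 on the log2 scale was found for 7.71% of tested genes and one of at least 2 for 3.16%. The median log2 change of the 5 genes was 0.99, against -0.01 for all tested genes. In bulk RNA a change in the number of cells and a change in RNA per cell cannot be told apart.

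**Figure D1:**
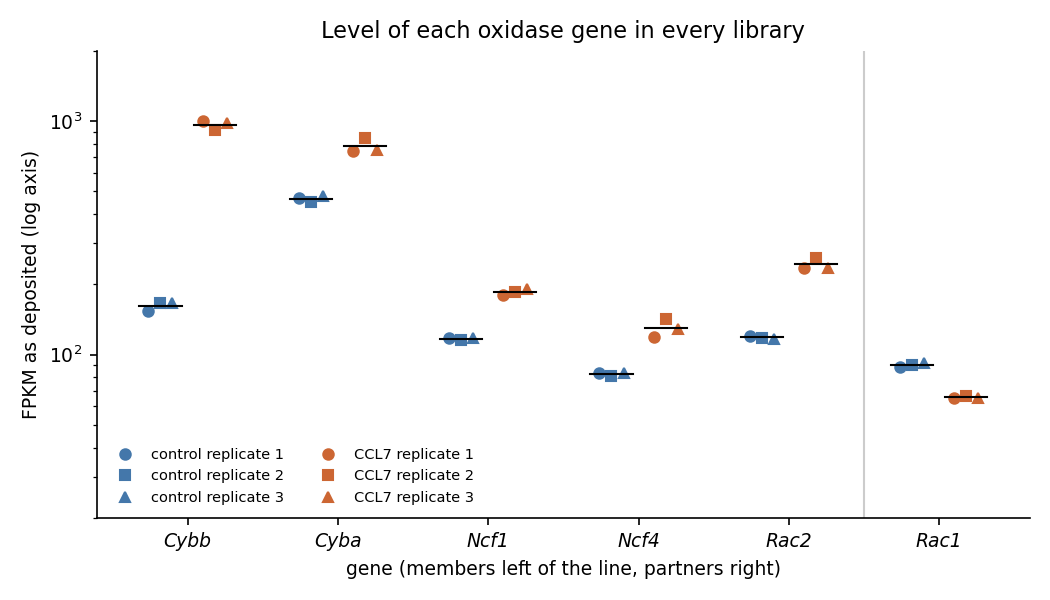
FPKM as deposited (log axis) of the 5 subunit genes and, right of the line, of *Rac1* in each of the 6 libraries, with symbols for replicates and black lines for group means. *Cybb* lay between 154 and 166 FPKM in controls and between 913 and 1003 with CCL7, and *Rac1* alone of the genes plotted was lower with CCL7.

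*Cybb* (ENSMUSG00000015340, X chromosome, 9435252 to 9487771, minus strand, GRCm38) is protein-coding and carries the haem and flavin groups of the enzyme. Its level was 828, 891 and 894 CPM in controls and 6343, 5837 and 6207 CPM with CCL7. The groups were far apart, and the lowest CCL7 library was replicate 2. The mean went from 871 ± 37.1 to 6129 ± 262 CPM, a log2 change of 2.81 ± 0.05 (SE; edgeR quasi-likelihood adjusted p = 3.11e-11), and 2.85 without that library. Of all tested genes 98.3% had a lower log2 change. By mean FPKM, *Cybb* moved from rank 228 to rank 30 among the 11143 tested genes.

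*Cyba* (ENSMUSG00000006519, chromosome 8, 122424776 to 122432930, minus strand) encodes the smaller membrane subunit, which steadies gp91phox and docks p47phox. It stood at 451, 433 and 460 CPM in controls and at 846, 967 and 848 with CCL7. Here CCL7 replicate 2 was the highest library, opposite to its place for *Cybb*. The log2 change was 0.99 ± 0.07 (edgeR adjusted p = 1.57e-07) and 0.92 without that library. *Cyba* was already among the most abundant transcripts in controls, at rank 54 by mean FPKM, and reached rank 36.

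With TMM scaling the cytosolic organizer and modulator rose by nearly the same amount. *Ncf1* (ENSMUSG00000015950, chromosome 5, 134220053 to 134229625, minus strand) encodes p47phox, which bridges the cytosolic proteins to p22phox once phosphorylated. It was at 398, 391 and 400 CPM in controls and 719, 746 and 757 with CCL7, the tightest groups of the 5 genes. Its log2 change was 0.90 ± 0.02 (edgeR adjusted p = 2.39e-08). *Gtf2ird2* overlaps it on the opposite strand and had 3157 control and 3962 CCL7 counts, against 49163 and 93868 for *Ncf1*, and whether the counting used strand is not given in the sources used here. *Ncf4* (ENSMUSG00000071715, chromosome 15, 78244801 to 78262580, plus strand) encodes p40phox, which binds a phosphoinositide of phagosome membranes. It was at 155, 151 and 156 CPM in controls and 261, 315 and 283 with CCL7. Its groups did not overlap, CCL7 replicate 2 was again the highest, and the log2 change of 0.90 ± 0.08 (edgeR adjusted p = 8.15e-07) was 0.82 without it.

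*Rac2* (ENSMUSG00000033220, chromosome 15, 78559167 to 78572783, minus strand) encodes the Rac GTPase of blood cells, which activates the complex in its GTP-bound form. It was at 347, 339 and 336 CPM in controls and 793, 889 and 792 with CCL7. All 3 CCL7 libraries were above all controls, and the log2 change was 1.27 ± 0.06 (edgeR adjusted p = 1.07e-08). CCL7 replicate 2 was the highest here too, and without it the change was 1.22. Complete separation of this kind, with CCL7 above control, was seen for 35.9% of tested genes. *Rac1* and *Rac2* are close relatives, and how reads matching both were counted is not given in the sources used here.

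The size of these changes depended on how libraries were scaled. With the deposited totals the median log2 change of all tested genes shifted by -0.24, 20.5% of tested genes were called higher and 53.5% lower, and *Cybb* was at 2.57, *Rac2* at 1.03, *Cyba* at 0.74, *Ncf1* at 0.66 and *Ncf4* at 0.65. Since this scaling moves all genes of a library alike, distances from the median of all tested genes stay nearly as they were. Quantile normalization can move genes apart. At an unmoved median of -0.01 it gave 2.40 for *Cybb*, 0.96 for *Rac2*, 0.64 for *Cyba*, 0.54 for *Ncf1* and 0.72 for *Ncf4*. There *Ncf4* rose more than *Ncf1*, unlike with TMM scaling. All 5 genes were called higher with every other setting too, against 32.9% of tested genes higher and 34.4% lower with quantile normalization and 32.6% and 34.1% with the replicate number as a block. These shares were 20.5% and 53.2% with limma on log2(FPKM + 1), 20.2% and 52.5% with limma on log2(FPKM + 0.1), and 36.2% and 36.7% among genes with a mean of at least 5 FPKM.

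**Figure D2:**
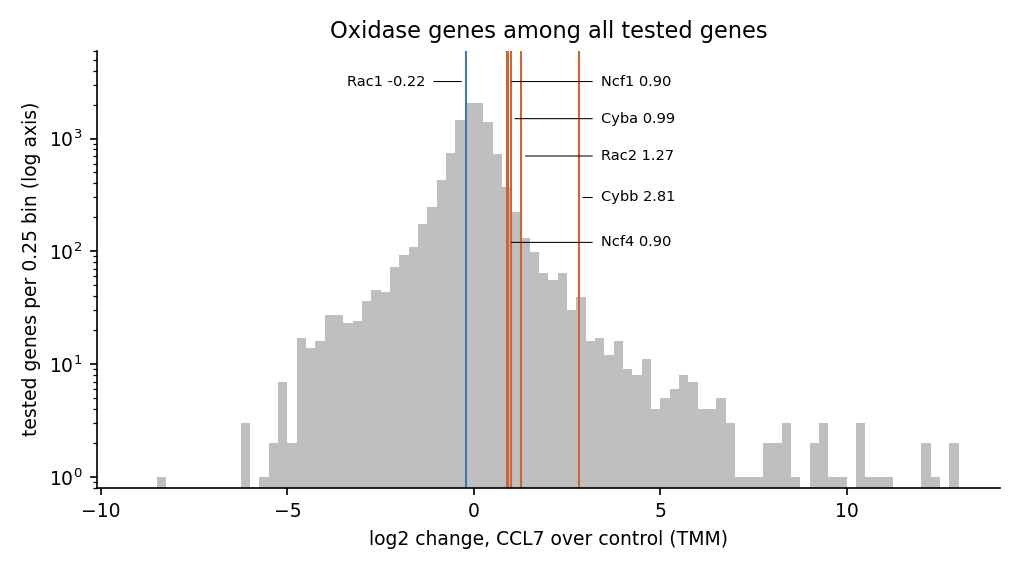
Number of tested genes (log axis) by log2 change, CCL7 over control, in bins of 0.25, with vertical lines for the 5 subunit genes (orange) and for *Rac1* (blue). *Cybb* at 2.81 lies in the right tail, the other 4 subunit genes lie between 0.90 and 1.27, and *Rac1* at -0.22 lies near the peak.

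RefSeq promoter windows were matched for 3 of the 5 genes, *Cybb*, *Cyba* and *Ncf1*. The windows of *Cybb*, the gene with the largest change, and of *Ncf1*, the gene with the tightest values, are shown because each holds letters that resemble sites of factor families known to act on oxidase genes. They run from 250 bases before to 30 bases after the RefSeq start, on build GRCm38.p6 and the minus strand, at chrX:9469295-9469574 and chr5:134229596-134229875. The *Cybb* window lies wholly inside the gene bounds given above, away from 9487771, where the minus-strand gene begins. The *Ncf1* window spans the beginning of its gene at 134229625. Which start was used in these cells was not tested. Capitals mark matches to the motifs searched.
Cybb: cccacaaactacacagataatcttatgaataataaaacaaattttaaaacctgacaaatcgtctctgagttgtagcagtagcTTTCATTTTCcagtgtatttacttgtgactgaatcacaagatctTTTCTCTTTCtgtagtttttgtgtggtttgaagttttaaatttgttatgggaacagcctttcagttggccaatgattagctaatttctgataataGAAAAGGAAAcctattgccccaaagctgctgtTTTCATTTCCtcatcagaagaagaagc
Ncf1: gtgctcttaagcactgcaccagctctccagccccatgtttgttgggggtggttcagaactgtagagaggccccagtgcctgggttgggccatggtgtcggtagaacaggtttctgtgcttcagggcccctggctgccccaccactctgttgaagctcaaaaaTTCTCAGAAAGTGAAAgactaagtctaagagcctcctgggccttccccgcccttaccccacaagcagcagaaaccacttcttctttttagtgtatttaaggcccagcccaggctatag
Motifs were searched on both strands over the whole RefSeq window, which ends 50 bases after the start. The interferon response motif (GAAA, any 2 bases, GAAA) was matched 3 times in the *Cybb* window, as TTTCATTTTC, TTTCTCTTTC and GAAAAGGAAA. These begin 168, 124 and 29 bases before the start, and the matches at 168 and 124 are on the opposite strand. It had at least 1 match in 3.44% of the 32851 RefSeq windows and at least 3 in 0.0152%. The ETS-IRF composite (GGAA, any 2 bases, GAAA) was matched in *Cybb* on the opposite strand as TTTCATTTCC, from base 4 after the start, and in 2.72% of all windows. In *Ncf1* the interferon response motif was matched as GAAAGTGAAA, 82 bases before the start. It shares letters with a match to the STAT motif TTCNNNGAA, which starts 88 bases before and is found in 8.30% of windows. The PU.1-type motif GAGGAAGT (3.20% of windows) and the NF-kB motif (GGG, any 2 bases, TTTCC, 1.63%) had no match in these windows. The *Cyba* window held none of the 5 motifs. For PU.1 only the exact letters GAGGAAGT were searched, so a PU.1-type site with other letters is not excluded. Read on the opposite strand, the end of TTTCATTTCC in *Cybb* and the letters after it nearly spell GAGGAAGT. A match describes letters only and does not show that a factor binds there.

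Levels can be compared between genes only per length, for which the deposited FPKM were used. The lengths are the summed exons of each gene, not of the transcripts present, so orders and shares depend on them. In controls the order was *Cyba* (466 ± 14.9 FPKM), *Cybb* (162 ± 6.72), *Rac2* (119 ± 1.94), *Ncf1* (117 ± 1.54) and *Ncf4* (82.3 ± 1.43). *Rac2* and *Ncf1* overlapped across the control libraries and cannot be ordered there, while the other neighbours did not overlap. With CCL7 the order was *Cybb* (967 ± 47.1 FPKM), *Cyba* (781 ± 55.7), *Rac2* (243 ± 14.7), *Ncf1* (185 ± 4.96) and *Ncf4* (130 ± 11.6), with no overlap between neighbours. The membrane pair thus changed places by this measure. Of the summed FPKM of the 5 genes *Cybb* held 17.1 ± 0.76% in controls and 41.9 ± 2.65% with CCL7, and *Cyba* 49.2 ± 0.752% and 33.9 ± 1.89%. The share of *Rac2* was 12.5 ± 0.346% and 10.5 ± 0.477%, that of *Ncf1* 12.4 ± 0.104% and 8.03 ± 0.245%, and that of *Ncf4* 8.71 ± 0.0737% and 5.62 ± 0.425%.

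**Figure D3:**
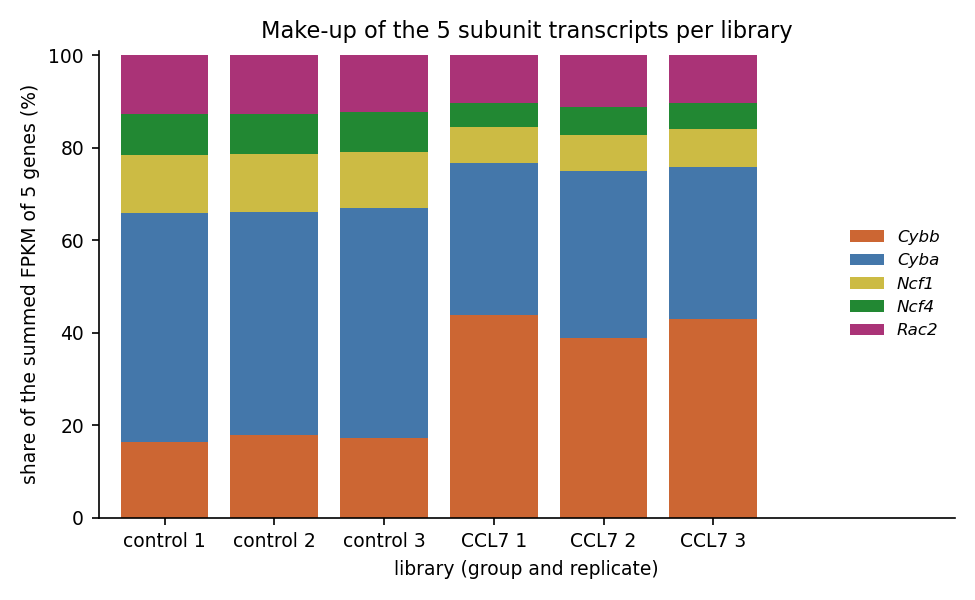
Share of the summed FPKM of the 5 subunit genes held by each gene (stacked, %) in each of the 6 libraries. *Cybb*, the lowest segment, holds 16.3% to 17.8% in the controls and 38.9% to 43.9% with CCL7, and *Cyba* is the largest segment in every control library.

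A ratio of genes within a library does not depend on library scaling, and all 10 pairs of the 5 genes were compared this way by an exact permutation test, 2-sided, for which 3 against 3 libraries allow no p below 0.1. The FPKM ratio of *Cybb* to *Cyba* was 0.329, 0.369 and 0.347 in controls and 1.34, 1.08 and 1.31 with CCL7, a difference of 1.83 ± 0.11 (SE) in the log2 ratio (exact p = 0.1, 0.125 adjusted over 10 pairs). The log2 ratio of *Cybb* to the other 3 genes was higher by 1.54 to 1.92, again with no overlap between groups. The ratio of *Ncf1* to *Ncf4* was 1.42, 1.43 and 1.42 in controls and 1.52, 1.31 and 1.48 with CCL7, so that the controls lay inside the CCL7 range. The difference of this log2 ratio was 0.01 ± 0.07 (SE; exact p = 1) and *Cyba* to *Ncf1* differed by 0.08 ± 0.06 (exact p = 0.3). *Cyba* to *Ncf4* differed by 0.09 ± 0.04, without overlap (exact p = 0.1), but after quantile normalization *Cyba* rose less (0.64) than *Ncf4* (0.72). Each of these 3 genes was lower relative to *Rac2* with CCL7, by log2 ratios of -0.29 ± 0.03 for *Cyba*, -0.37 ± 0.06 for *Ncf1* and -0.38 ± 0.04 for *Ncf4* (exact p = 0.1 each).

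Of the 5 assembly partners, all tested, 4 rose and *Rac1* fell, with a median log2 change of 0.66 (all tested genes: 33.9% higher, 35.2% lower, median -0.01). With the deposited totals the same 4 rose, and after quantile normalization 3 of them, while *Rac1* fell under both. The shares of all tested genes were 20.5% higher and 53.5% lower with the totals, and 32.9% and 34.4% after quantile normalization. *Rac1*, the widely expressed relative of *Rac2*, was at 368, 376 and 383 CPM in controls and 318, 329 and 319 with CCL7 (log2 change -0.22 ± 0.02, edgeR adjusted p = 0.001). The FPKM ratio of *Rac2* to *Rac1* went from 1.36, 1.31 and 1.27 in controls to 3.61, 3.92 and 3.60 with CCL7, a ratio chosen after the values were seen. *Hvcn1*, which encodes the proton channel that balances the charge moved by the oxidase, rose by 1.10 ± 0.03 from 59.3 ± 0.774 to 127 ± 4.27 CPM. *Cybc1*, which encodes the chaperone needed for the gp91phox and p22phox pair, rose by 0.66 ± 0.04. *Rap1a*, whose GTPase was found with the flavocytochrome, rose by 0.76 ± 0.07. Its relative *Rap1b* rose by 0.50 ± 0.06, but its adjusted p was 0.0559 with quantile normalization.

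Genes of the other NADPH oxidases were at very low counts. Of 9 genes in that list 6 were analysed here, none reached a mean of 1 FPKM, and the highest count in any library was 45. *Nox1*, which encodes the oxidase of colon epithelium, had 19, 13 and 15 counts in controls and 12, 27 and 20 with CCL7. *Noxo1*, its organizer, had 21, 34 and 31 and then 45, 34 and 18. The groups overlapped for both.

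Genes that supply NADPH, the fuel of the enzyme, mostly rose: 9 of 10 passed upward and 0 downward, with a median log2 change of 0.59. Of all tested genes 33.9% were higher and 35.2% lower. The list gave 7 and 0 with the deposited totals, where all tested genes gave 20.5% and 53.5%. It gave 7 and 1 after quantile normalization, where all tested genes gave 32.9% and 34.4%. *Pgls* no longer passed without control replicate 1 or 2 or without CCL7 replicate 3 (adjusted p = 0.0522 to 0.0944). Its log2 change of 0.15 was -0.09 with the deposited totals and 0.10 with quantile normalization, and it passed under neither. *Nadk*, which encodes the kinase that makes NADP from NAD, rose by 1.75 ± 0.02 from 153 ± 3.31 to 513 ± 3.10 CPM. *Me1*, which encodes the cytosolic malic enzyme, rose by 1.55 ± 0.01. *Pgd*, which encodes the second NADPH-forming enzyme of the pentose phosphate pathway, rose by 1.06 ± 0.04. The exception with TMM scaling, *Rpia* (0.20 ± 0.10, adjusted p = 0.0773), passed without control replicate 2 (adjusted p = 0.0402) and without CCL7 replicate 3 (adjusted p = 0.0440).

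Genes that remove superoxide and peroxide went both ways: of 12 tested 8 rose and 4 fell, with a median of 0.40, beside 33.9% and 35.2% of all tested genes. The call of *Gpx4* ended without any 1 of the controls (adjusted p = 0.0648 to 0.069). Its log2 change was 0.18 with TMM scaling, -0.06 with the deposited totals and 0.00 with quantile normalization. The call of *Gpx1* ended without control replicate 1 or 3 or CCL7 replicate 1 or 3 (adjusted p = 0.0572 to 0.119). Under the deposited totals as under quantile normalization 6 rose and 4 fell. The shares of all tested genes were 20.5% higher and 53.5% lower with the totals, and 32.9% and 34.4% after quantile normalization. *Prdx5*, a peroxiredoxin gene, rose by 4.19 ± 0.10 from 94.7 ± 3.26 to 1734 ± 210 CPM, *Sod2*, which encodes mitochondrial superoxide dismutase, by 4.62 ± 0.06 and *Prdx1* by 2.08 ± 0.11. *Gpx3*, which encodes a secreted glutathione peroxidase, fell (-1.73 ± 0.06), with *Prdx4* of the endoplasmic reticulum (-0.92 ± 0.08) and *Sod1*, which encodes cytosolic superoxide dismutase (-0.25 ± 0.08).

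Regulators of Rac went both ways in shares not far from those of all tested genes (33.9% higher, 35.2% lower). Of 12 tested 5 rose, 6 fell and *Vav2* (-0.12 ± 0.07) did not pass, with a median of -0.15. The list gave 4 up and 7 down under the deposited totals, where all tested genes gave 20.5% and 53.5%. It gave 3 and 6 after quantile normalization (all tested genes: 32.9% and 34.4%). The fall of *Vav3* was lost without control replicate 1 (adjusted p = 0.11) or 2 (adjusted p = 0.0563). *Arhgdib*, which encodes the inhibitor that holds Rac in the cytosol, rose by 1.45 ± 0.06. The exchange factor genes *Vav1* (0.56 ± 0.03) and *Prex1* (0.54 ± 0.09) rose, and *Tiam1* fell (-0.63 ± 0.17). *Dock2*, the listed exchange factor gene with the highest control level (451 CPM), also fell (-0.27 ± 0.07, and -0.57 with quantile normalization). The largest falls were in genes of proteins that switch Rac off, *Chn2* (-4.66 ± 0.13, 1922 counts in the 3 controls and 77 with CCL7) and *Arhgap15* (-1.48 ± 0.07). Genes of that kind did not all fall. *Arhgap25* fell (-0.53 ± 0.04), but the more abundant *Abr* rose by 0.37 ± 0.04 from 542 to 700 CPM, and was at 0.02 with quantile normalization.

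Of 7 tested genes for kinases known to phosphorylate p47phox in one cell type or another, 3 rose, 3 fell and *Akt1* (0.02 ± 0.02) did not pass, which is near the 33.9% and 35.2% of all tested genes. *Prkcb* rose by 1.05 ± 0.14 and *Mapk14*, which encodes p38, by 0.44 ± 0.02. *Prkcd* rose by 0.35 ± 0.02, but was at -0.01 with quantile normalization (adjusted p = 0.887). *Pak1* (-0.66 ± 0.03) and *Irak4* (-0.26 ± 0.04) fell. The fall of *Mapk3* (-0.12 ± 0.04, adjusted p = 0.0459) was lost without any 1 of the 3 controls or without CCL7 replicate 1 or 3 (adjusted p = 0.0732 to 0.202). With all 6 libraries *Mapk3* also did not pass with DESeq2, the replicate block or no FPKM filter (adjusted p = 0.0708 to 0.405). It passed with the deposited totals (-0.37) and with quantile normalization (-0.31). The median of the list was 0.02, and *Akt1* also fell with the deposited totals (-0.22).

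Of 7 tested genes for transcription factors known from work on the human *CYBB* promoter or on *Cybb*, 3 rose, 2 fell and 2 did not pass, with a median of 0.09, against 1 higher and 4 lower with the deposited totals. These counts are close to the shares of all tested genes, 33.9% and 35.2% with TMM scaling and 20.5% and 53.5% with the deposited totals. *Irf1* rose by 0.49 ± 0.08. *Spi1*, which encodes PU.1, a factor that sets macrophage identity, was at 337 ± 3.01 and 424 ± 20.7 CPM, and its log2 change of 0.33 ± 0.04 was 0.09 with the deposited totals (adjusted p = 0.112). *Rela*, which encodes an NF-kB subunit, rose by 0.15 ± 0.02, but was at -0.09 with the deposited totals (adjusted p = 0.0887) and did not pass without control replicate 2 (adjusted p = 0.0658) or 3 (adjusted p = 0.0513). *Irf8* (0.09 ± 0.03) and *Irf2* (0.04 ± 0.04) did not pass, but both fell with the deposited totals (-0.15 and -0.20). The repressor gene *Cux1* (-0.53 ± 0.06) and *Elf1* (-0.50 ± 0.06) fell.

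**Figure D4:**
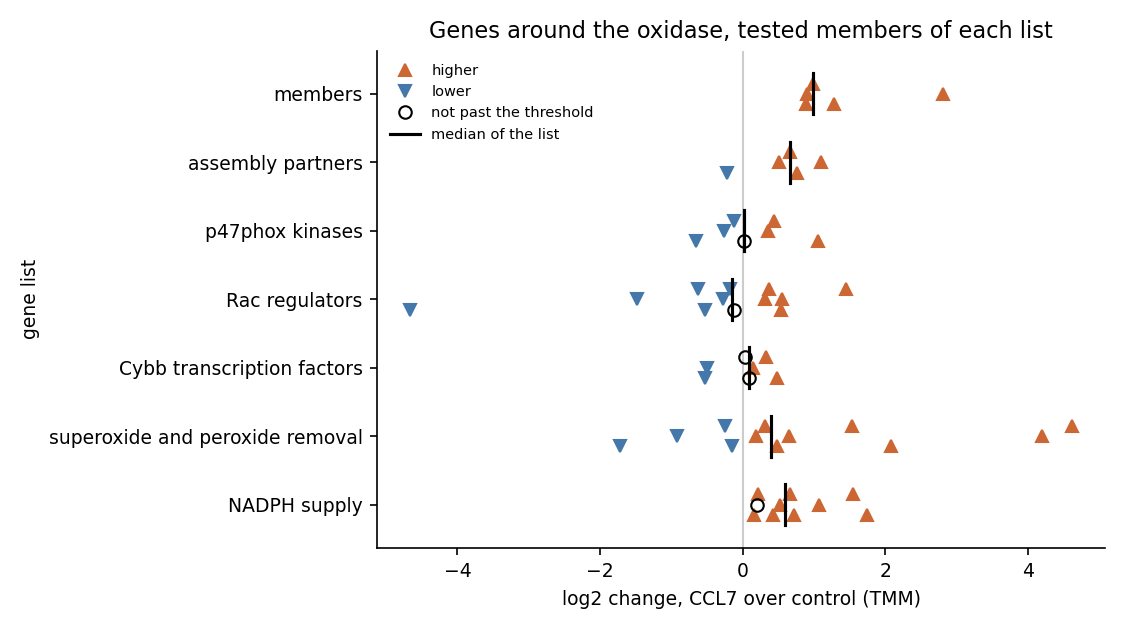
Log2 change, CCL7 over control with TMM scaling, of every tested gene in 7 lists (triangles up are called higher, triangles down lower, open circles did not pass, black bars are list medians). All 5 subunit genes lie right of 0, the Rac regulators spread from -4.66 to 1.45, and the genes for superoxide and peroxide removal from -1.73 to 4.62.

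For each of the 5 genes the 3 tested genes with the most similar profile over the 6 libraries were found by the root mean square difference of centred log2 CPM. With only 2 conditions, likeness mostly means a similar log2 change. *Cybb* was closest to *Gsap* (0.052), *H2-Ab1* (0.059) and *Thbs1* (0.067). *Rac2* was closest to *Mvp* (0.014), *Fcer1g* (0.023), which encodes the signalling chain of Fc receptors, and *Gsdmd* (0.027), which encodes the pore-forming protein gasdermin D. *Cyba* was closest to *Polr3d* (0.033), *Ncf1* to *Ncln* (0.024) and *Ncf4* to *Ift22* (0.034). No subunit gene was among the 3 nearest of another.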

How the data were processed

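Gene counts deposited by the authors were whole numbers without normalization, per the file headers and the values. FPKM deposited by the authors equalled the count divided by gene length and by library total, on the usual FPKM scale, with lengths equal to the summed exon length in GENCODE M21 (GRCm38) for the 5 genes and 5 partners. Bowtie 0.12.2 and builds mm8 and mm9 are named, without roles, per the submitters' processing notes. For the counting program, annotation and strand setting nothing is stated in the sources used here.

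Genes with a mean of at least 1 FPKM over the 6 libraries (11143) were tested with edgeR 4.0.16 (R 4.3.3; quasi-likelihood, 2-sided, on group alone, with TMM scaling). Benjamini-Hochberg adjustment ran over all of them, with a threshold of 0.05. SEs come from the SDs of log2 CPM. The 175 entries without a symbol (at most 0.0029% of counts) were kept. Among counts of 1 to 9, 66.0% were even (50.1% at 100 or more), so halved counts were tried. Alternatives also used DESeq2 1.42.0 and limma 3.58.1. The test was also run on simulated counts in which few genes changed, unlike these data, and no result here rests on that run.

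The 5 genes, the lists and the rules were chosen with earlier results of these data known. All 5 genes and all partners were to be named. From other lists the 3 largest rises and falls were named, with genes that did not pass where these were at most 4. Some further genes, such as *Abr* and *Pgls*, were named to show a limit. Precision is limited by the 3 libraries per group and, for genes with few counts, by counting error. Some genes of the lists are not reported here.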

Additional observations from a re-analysis of the deposited data

How the results depend on the processing

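The 5 subunit genes kept their direction and stayed past the threshold under all 16 alternatives, in which 19.2% to 36.2% of tested genes were called higher. *Cybb* ranged from 2.40 to 2.87, *Rac2* from 0.96 to 1.33, *Cyba* from 0.64 to 1.04, *Ncf1* from 0.54 to 0.95 and *Ncf4* from 0.65 to 0.97 on the log2 scale. Quantile normalization gave the lowest value of 4 of them (the deposited totals for *Ncf4*). The cause was not tested.

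Quantile normalization called 3 Rac regulators higher, 1 transcription factor higher and 1 NADPH supply gene (*Taldo1*) lower. Of all tested genes 32.9% were then higher and 34.4% lower. The deposited totals, and limma on log2(FPKM + 1) and log2(FPKM + 0.1), called 1 transcription factor higher and 4 lower. All tested genes gave 20.5% and 53.5%, 20.5% and 53.2%, and 20.2% and 52.5% in that order. Both limma fits called 3 Rac regulators higher. The filter at a mean of 5 FPKM, which tests fewer genes, called 3 Rac regulators lower (all tested genes: 36.2% higher, 36.7% lower). The difference between groups in the *Ncf1* to *Ncf4* log2 ratio, 0.01, ranged from -0.03 to 0.08 with 1 library left out. It was negative without CCL7 replicate 1 (-0.03) or 3 (-0.01).

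Replicate numbers gave no sign of pairing. The correlation of deviations was -0.0835, -0.0346 and -0.0162 between same-numbered libraries and -0.0352 to 0.0833 between the others. With 3 libraries per group this cannot exclude that same-numbered libraries shared an animal or culture. With the replicate block *Cybb* was at 2.81 and the count of subunit genes called higher was 5.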

Other observations

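Some transcripts that mark other myeloid cells were at low counts and differed between the groups. *Ly6c2*, a marker of monocytes, had 5 counts over the 3 controls and 425 over the 3 CCL7 libraries, and *Camp*, which encodes a granule peptide, had 10 and 158. *Ccr2*, also a marker of monocytes, had 193 and 60 counts. *Xcr1*, a marker of one kind of dendritic cell, had 12 and 131 counts, while the other dendritic cell markers had 32 and 35 (*Zbtb46*), 2 and 0 (*Flt3*) and 4 and 0 (*Siglech*). *Cpa3*, a marker of mast cells, had 53 and 9 counts. With CCL7 *Camp* had a mean of 1.51 FPKM and *Ly6c2* of 1.13 FPKM, against 967 FPKM for *Cybb*. The transcripts named first were picked after their values were seen. Their part in the change of the oxidase genes was not tested.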
